A study of Mus musculus with 79 samples.

Results

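GABA-A receptors are chloride channels built from 5 subunits around a central pore, and they carry most fast inhibition in the forebrain. A typical receptor holds alpha and beta subunits with a gamma or a delta subunit. Receptors with alpha2 or alpha3 sit mainly at synapses, whereas alpha5 receptors of hippocampal pyramidal cells and receptors of alpha4 with delta, known from dentate granule cells, lie largely outside synapses and carry tonic inhibition. The genes described here are 7 of these subunits, Gabra2 (alpha2), Gabra3 (alpha3), Gabra4 (alpha4), Gabra5 (alpha5), Gabrb1 (beta1), Gabrb2 (beta2) and Gabrd (delta), and they were found by matching their symbols to the Ensembl identifiers of the count table. They are 7 of 55471 identifiers and 7 of the 19 GABA-A receptor subunit genes in the table. All 7 had counts in every library.

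Bulk RNA was measured in the medial prefrontal cortex (mPFC) and the ventral hippocampus (vHipp) of 40 male wild type CD-1 mice, aged 9 to 10 weeks, to ask how chronic social defeat stress (CSDS) and a later dose of ketamine act on both regions. CSDS mice met aggressive mice over 21 days and went back to their own group after each encounter, and control mice (CTRL) stayed group-housed in the same room. Each mouse then received 1 injection of saline or of ketamine, an NMDA receptor antagonist, at 10 mg/kg, and tissue was taken as 1 mm punches 7 days later. The groups were CTRL saline, CTRL ketamine, CSDS saline and CSDS ketamine, with 10 mice each, and the mPFC of 1 CSDS ketamine mouse was not analysed here, which left 39 mPFC and 40 vHipp libraries. The labels do not give the social rank of a mouse, so each group pools mice without regard to rank, and contrasts within a rank were not analysed here. Mouse numbers fall in runs of 4, each with 2 saline and 2 ketamine mice of 1 stress group. Libraries held between 11726129 and 41767119 counts, with a median of 19638060, and levels are given as CPM, library-scaled counts with TMM factors.

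Most markers of cortical layers, dentate granule cells and CA fields had the higher median in the region of their list. The median level of Cux2, a gene of upper cortical layers, was 189.8 CPM in the mPFC and 34.0 CPM in the vHipp. That of Prox1, a dentate granule cell gene, was 22.7 CPM and 149.8 CPM. The exceptions were Tle4 of the cortical layer list (52.8 and 80.4 CPM), Calb1 of the dentate list (131.3 and 107.2 CPM) and Wfs1 of the CA list (153.2 and 50.1 CPM). The punches of the vHipp varied in what they held, since the CA1 gene Fibcd1 lay between 9.58 and 211 CPM. The libraries least like the others of their region were those of CSDS ketamine mouse 1 in the mPFC (median r with the others 0.980) and CSDS ketamine mouse 11 in the vHipp (0.969). The vHipp library of CSDS saline mouse 9 held 698 CPM of summed choroid plexus markers, a log2 deviation of 4.26 from its group mean, followed by CSDS saline mouse 13 at a deviation of 1.32, and no vHipp library of the other 3 groups exceeded 30.4 CPM. Libraries also differed in the balance of long and short transcripts, measured as the median log2 CPM deviation of the 1519 genes with the longest exon length minus that of the 1521 genes with the shortest, and mouse 1 was lowest in both regions, with −0.63 in the mPFC and −0.64 in the vHipp. Gabrb1 is itself 1 of the 1519 long genes, and Gabrb2 is not.

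Of the 7 genes, 3 lie in one cluster on chromosome 5 (GRCm38, GENCODE release M21). Gabra2 spans chr5:70957597-71095849 on the minus strand, Gabra4 spans chr5:71569749-71658308 on the minus strand, and Gabrb1 spans chr5:71658113-72149037 on the plus strand. Gabra4 and Gabrb1 are head to head, with starts 195 bases apart, and share 46 exon bases. Gabra5 lies at chr7:57407672-57510059 on the minus strand, where 4.98% of its exon length is shared with Gm9962 on the other strand. Gabra3 lies at chrX:72432681-72656848 on the minus strand, Gabrb2 at chr11:42419757-42629028 on the plus strand and Gabrd at chr4:155384980-155398112 on the minus strand. The libraries were stranded, but the strand setting of the counting was not stated, so reads from bases that opposite genes share cannot be assigned with certainty.

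The promoters of the chromosome 5 genes are shown because these 3 genes correlated with each other over mice in the mPFC, and those of Gabra5 and Gabra3 because these 2 genes differed most between the regions. Each run holds the 250 bases before and the 50 bases after a RefSeq start (GRCm38.p6), written 5′ to 3′ on the strand of the gene. RefSeq windows were matched for 6 of the 7 genes, all but Gabrd. Gabrb1 and Gabra3 have 2 windows each in the table, and the first listed is printed. Capitals mark matches on either strand to the GC box, whose letters are GGGCGG, to the CCAAT box, whose letters are its name, to the TATA box, whose letters are TATAAA, and to TGACG, the core of the cAMP response element. The full element, with the letters TGACGTCA, contains that core, and it was also searched, as was the E-box, with the letters CACGTG. The windows lie at chr5:71095800-71096099 (Gabra2), chr5:71658259-71658558 (Gabra4), chr5:71657671-71657970 (Gabrb1), chr7:57510010-57510309 (Gabra5) and chrX:72656870-72657169 (Gabra3).
Gabra2: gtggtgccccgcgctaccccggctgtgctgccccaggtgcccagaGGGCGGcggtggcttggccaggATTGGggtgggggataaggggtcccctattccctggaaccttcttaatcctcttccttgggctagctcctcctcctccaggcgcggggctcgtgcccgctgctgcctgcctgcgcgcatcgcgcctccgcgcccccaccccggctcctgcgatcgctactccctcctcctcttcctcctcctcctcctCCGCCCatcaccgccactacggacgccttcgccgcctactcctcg
Gabra4: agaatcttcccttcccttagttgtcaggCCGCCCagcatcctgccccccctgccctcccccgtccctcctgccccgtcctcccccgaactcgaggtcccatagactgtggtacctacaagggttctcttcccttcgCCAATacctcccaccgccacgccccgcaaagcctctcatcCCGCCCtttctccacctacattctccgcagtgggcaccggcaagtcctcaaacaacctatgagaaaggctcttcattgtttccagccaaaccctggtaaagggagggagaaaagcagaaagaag
Gabrb1: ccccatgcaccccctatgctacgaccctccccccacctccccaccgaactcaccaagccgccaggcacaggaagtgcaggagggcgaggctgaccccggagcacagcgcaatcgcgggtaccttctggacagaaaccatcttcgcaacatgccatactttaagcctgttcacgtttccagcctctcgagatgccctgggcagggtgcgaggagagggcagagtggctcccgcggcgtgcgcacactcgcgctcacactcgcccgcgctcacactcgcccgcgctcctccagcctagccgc
Gabra5: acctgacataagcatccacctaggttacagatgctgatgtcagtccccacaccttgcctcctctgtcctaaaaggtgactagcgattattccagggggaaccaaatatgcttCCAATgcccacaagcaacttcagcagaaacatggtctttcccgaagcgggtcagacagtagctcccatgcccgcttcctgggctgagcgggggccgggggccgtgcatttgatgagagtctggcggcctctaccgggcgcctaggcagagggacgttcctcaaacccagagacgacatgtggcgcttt
Gabra3: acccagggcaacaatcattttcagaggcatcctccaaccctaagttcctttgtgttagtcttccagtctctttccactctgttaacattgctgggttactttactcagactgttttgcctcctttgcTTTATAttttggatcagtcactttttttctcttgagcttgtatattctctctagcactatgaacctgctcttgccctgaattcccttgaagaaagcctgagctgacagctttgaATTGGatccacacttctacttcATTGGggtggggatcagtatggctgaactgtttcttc

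These windows differed in base composition. G and C made up 70.0% of the Gabra2 window, 66.0% of the Gabrb1 window, 58.7% of the Gabra4 window, 56.7% of the Gabra5 window and 43.0% of the Gabra3 window, against a median of 52.7% over 32851 promoter windows. The Gabra2 and Gabrb1 windows each held 25 CpG and the Gabra3 window held 0, and the median was 7. The second windows, not printed, held 50.3% G and C with 9 CpG for Gabrb1 and 39.3% with 0 CpG for Gabra3. Gabra2 and Gabra4 each had 2 GC boxes and 1 CCAAT box. Gabra5 had 1 CCAAT box, Gabra3 had 1 TATA box and 2 CCAAT boxes, and Gabrb1 had no match to any of these motifs. Over all promoters, 35.7% held a GC box, 37.4% a CCAAT box, 13.6% a TATA box, 20.8% the core TGACG, 1.79% the full element and 7.15% an E-box.

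Gabra5 and Gabra2 were chosen as rich in the vHipp, so their differences between the regions are a description without a test. The other 5 genes all differed between the regions at an adjusted p under 0.05, where 48.9% of the 31534 genes tested did so (24.4% higher and 24.5% lower in the vHipp) and 53.3% had an unadjusted p under 0.05. Gabrb1 and Gabra4 were higher in the vHipp, and Gabra3, Gabrd and Gabrb2 were higher in the mPFC. Differences are log2 fold changes (LFC) of the vHipp over the mPFC from edgeR's quasi-likelihood test, as a mean over the 4 groups, each with its standard error (SE). In bulk tissue, fewer cells of a type and less RNA per cell cannot be told apart.

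Gabra5, which encodes the subunit of the extrasynaptic receptors of hippocampal pyramidal cells, lay between 31.6 and 66.3 CPM in the mPFC with a median of 47.9 CPM, and between 126.1 and 298.8 CPM in the vHipp with a median of 206.7 CPM. No mPFC library reached the lowest vHipp library. The LFC was 2.06 (SE 0.0638), and within mice the vHipp held 4.17 times the mPFC level as a geometric mean over 39 mice. Gabra2, an alpha subunit of synapses on principal neurons, lay between 124.4 and 238.1 CPM in the mPFC (median 167.3 CPM) and between 222.5 and 392.1 CPM in the vHipp (median 299.2 CPM). The ranges overlapped only at their edges, between 222.5 and 238.1 CPM, and in all 39 mice the vHipp was the higher of the pair. Its LFC was 0.87 (SE 0.0471).

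Gabra3, the alpha subunit that adult cortex holds at higher levels than hippocampus, went the other way. It lay between 145.6 and 207.0 CPM in the mPFC with a median of 182.7 CPM, and between 21.7 and 93.7 CPM in the vHipp with a median of 44.4 CPM. The ranges did not overlap, which held for 2.92% of all genes tested. The LFC was −2.10 (SE 0.0796, adjusted p = 8.41e-39 by the quasi-likelihood test of edgeR, adjusted after Benjamini-Hochberg). Relative to its mean, Gabra3 varied more between mice in the vHipp (coefficient of variation 34.8%) than in the mPFC (8.70%).

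Gabrd, the delta subunit of tonic receptors, lay between 33.2 and 70.3 CPM in the mPFC with a median of 46.1 CPM, and between 11.2 and 42.1 CPM in the vHipp with a median of 24.0 CPM. The ranges overlapped, but all 39 mice had less in their own vHipp. A direction shared by all mice was found for 8.44% of the genes tested and, among the 5 genes not chosen for this difference, for Gabra3 and Gabrd. The LFC of Gabrd was −0.91 (SE 0.0705, adjusted p = 5.36e-20 by the quasi-likelihood test of edgeR, adjusted after Benjamini-Hochberg).

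The other 3 genes differed less. Gabrb1, a beta subunit, lay between 133.02 and 256.1 CPM in the mPFC (median 208.9 CPM) and between 167.4 and 459.8 CPM in the vHipp (median 301.0 CPM), with an LFC of 0.55 (SE 0.0556, adjusted p = 1.94e-14 by the quasi-likelihood test of edgeR, adjusted after Benjamini-Hochberg). It was higher in the vHipp of 38 of 39 mice, and the exception was mouse 9. Gabra4, the alpha subunit that partners delta, lay between 91.2 and 128.3 CPM in the mPFC (median 104.005 CPM) and between 85.4 and 155.03 CPM in the vHipp (median 116.3 CPM), with an LFC of 0.11 (SE 0.0353, adjusted p = 0.00456 by the same edgeR test). The mPFC range lay within the vHipp range, and 29 of 39 mice had more in the vHipp. Gabrb2, another beta subunit, lay between 69.3 and 192.7 CPM in the mPFC (median 150.1 CPM) and between 45.2 and 175.6 CPM in the vHipp (median 130.3 CPM), with an LFC of −0.25 (SE 0.0733, adjusted p = 0.00307 by the same edgeR test). It was lower in the vHipp of 33 of 39 mice, and mouse 9 had the largest drop, of −1.78 on the log2 scale.

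**Figure D1:**
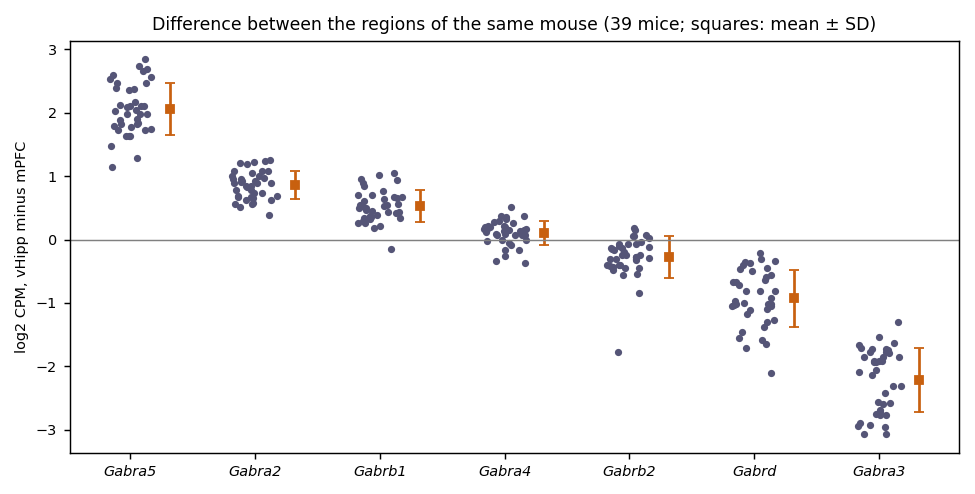
Difference in log2 CPM between the vHipp and the mPFC of the same mouse (y axis) for each of the 7 genes (x axis), with 1 point for each of 39 mice and squares for the mean ± SD. All points of Gabra5 and Gabra2 lie above 0 and all points of Gabra3 and Gabrd below it, with means of 2.06, 0.86, −2.21 and −0.93, and the lowest point of Gabrb2 is mouse 9 at −1.78.

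Levels of different genes were compared per kilobase of exon length, as CPM per kb. In the mPFC, Gabra3 had the highest level of the 7 genes (46.0 ± 4.00 CPM per kb, SD, n = 39) and exceeded the next gene, Gabrb2, in all 39 libraries. Gabrb2 (23.3 ± 4.21) and Gabra2 (22.0 ± 3.35) were neighbours whose order held in 26 of 39 libraries. Gabra2 lay above Gabra4 (17.4 ± 1.38) in all 39, whereas among Gabra4, Gabra5 (16.5 ± 3.09), Gabrd (15.6 ± 2.35) and Gabrb1 (15.0 ± 2.18) neighbours in the order did not differ beyond their spread, each exceeding the next in 21 to 25 libraries. The first and the last of these 4 were further apart, with Gabra4 above Gabrb1 in 37 of 39 libraries.

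In the vHipp, Gabra5 came first at 68.9 ± 12.9 CPM per kb (SD, n = 40), followed by Gabra2 at 40.1 ± 5.77, and both orders, over Gabra2 and over Gabrb1, held in 40 of 40 libraries. Gabrb1 (21.8 ± 4.10), Gabrb2 (19.6 ± 4.46) and Gabra4 (18.8 ± 2.64) were close, with the order kept in 30 and 25 of 40 libraries. Gabra3 (10.7 ± 3.73) was below Gabra4 in 38 of 40 libraries, and Gabrd (8.33 ± 2.41) was below Gabra3 in 26.

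The other genes of the pathway were counted from lists. Of 12 other subunit genes, 11 were tested, 3 were higher and 5 lower in the vHipp, where 24.4% of all genes tested were higher and 24.5% lower, and their median LFC was −0.49 (median of all genes tested 0.000275, median of the 7 genes 0.11). The largest differences were those of Gabrr1 (LFC 2.13), a rho subunit with at most 23 counts in any library, and Gabrq (−0.98), the theta subunit. Of 8 genes of GABA synthesis and transport, 6 were higher and 1 lower (median LFC 0.16), with the largest differences in the GABA transporters Slc6a13 (−1.36) and Slc6a11 (0.34).

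Of 10 genes of receptor anchoring and assembly, 7 were higher and 1 lower in the vHipp (median LFC 0.16), against 24.4% and 24.5% of all genes tested, led by Iqsec3 (0.81), a gephyrin-binding exchange factor, and Gphn (0.39), the gephyrin scaffold itself. Of the 2 chloride transporters, Slc12a5, which lowers chloride in neurons, was lower (−0.44) and Slc12a2 did not pass (0.03). Of 5 GABA-B receptor genes, 1 was higher and 3 lower, with the largest differences in the auxiliary subunits Kctd12 (1.75) and Kctd8 (−0.23).

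Within a region the groups were close. The values of each gene are given as the group median with the lowest and highest mouse, in the order CTRL saline, CTRL ketamine, CSDS saline, CSDS ketamine. Gabra5 in the mPFC had medians of 50.1 CPM (34.9 to 66.3), 55.6 (34.5 to 64.0), 46.7 (31.6 to 56.2) and 43.6 (31.8 to 57.2). In the vHipp they were 219.5 CPM (150.9 to 256.0), 201.2 (127.4 to 272.0), 205.1 (165.4 to 247.2) and 202.7 (126.1 to 298.8). Both CSDS groups had lower mPFC medians than both CTRL groups, but the ranges of all 4 groups overlapped in either region.

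Gabra2 had mPFC medians of 168.3 CPM (132.6 to 216.2), 165.3 (141.7 to 196.6), 181.2 (124.4 to 238.1) and 152.1 (128.3 to 191.6). Its vHipp medians were 303.1 CPM (268.2 to 387.8), 298.0 (251.4 to 353.6), 290.1 (246.7 to 378.1) and 312.7 (222.5 to 392.1). All groups overlapped, and CSDS ketamine had the lowest median in the mPFC and the highest in the vHipp. Gabra3 had mPFC medians of 182.2 CPM (151.9 to 190.4), 184.9 (163.97 to 200.3), 188.5 (145.6 to 207.0) and 179.2 (146.8 to 202.4). In the vHipp its medians were 32.1 CPM (21.7 to 52.5), 44.4 (25.5 to 54.5), 46.1 (24.1 to 56.3) and 49.1 (24.1 to 93.7). The groups overlapped, and the highest vHipp value was that of 1 mouse, CSDS ketamine mouse 5.

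Gabra4 had mPFC medians of 104.01 CPM (94.4 to 113.7), 103.2 (97.3 to 117.6), 110.3 (96.3 to 128.3) and 104.005 (91.2 to 112.3). In the vHipp they were 122.7 CPM (106.02 to 138.9), 119.7 (91.8 to 137.004), 103.4 (85.4 to 155.03) and 100.8 (87.3 to 134.3). The vHipp medians of both CSDS groups lay below those of both CTRL groups, with overlapping ranges. Gabrd, its partner, had mPFC medians of 46.3 CPM (36.5 to 49.3), 41.1 (33.2 to 48.9), 46.7 (35.3 to 51.1) and 46.6 (36.9 to 70.3). In the vHipp they were 25.2 CPM (14.8 to 37.3), 26.6 (17.6 to 42.1), 21.7 (11.2 to 30.9) and 20.0 (11.7 to 33.9). Here too the CSDS medians were the lower ones in the vHipp, and all groups overlapped.

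Gabrb1 had mPFC medians of 202.9 CPM (165.1 to 256.1), 209.3 (192.3 to 250.2), 215.8 (160.1 to 244.8) and 186.7 (133.02 to 246.4). Its vHipp medians were 301.0 CPM (238.8 to 372.8), 313.9 (252.6 to 379.5), 296.4 (192.7 to 369.1) and 311.9 (167.4 to 459.8). The CSDS ketamine group had the widest range of the 4 in both regions. Gabrb2 had mPFC medians of 149.9 CPM (101.3 to 173.4), 158.2 (109.4 to 192.7), 148.4 (110.1 to 188.9) and 137.6 (69.3 to 189.6). Its vHipp medians were 133.1 CPM (56.6 to 175.6), 145.2 (89.2 to 161.02), 133.9 (45.2 to 149.3) and 121.7 (52.2 to 142.9). The groups overlapped, and the 3 lowest vHipp values were those of mice 24, 9 and 1.

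**Figure D2:**
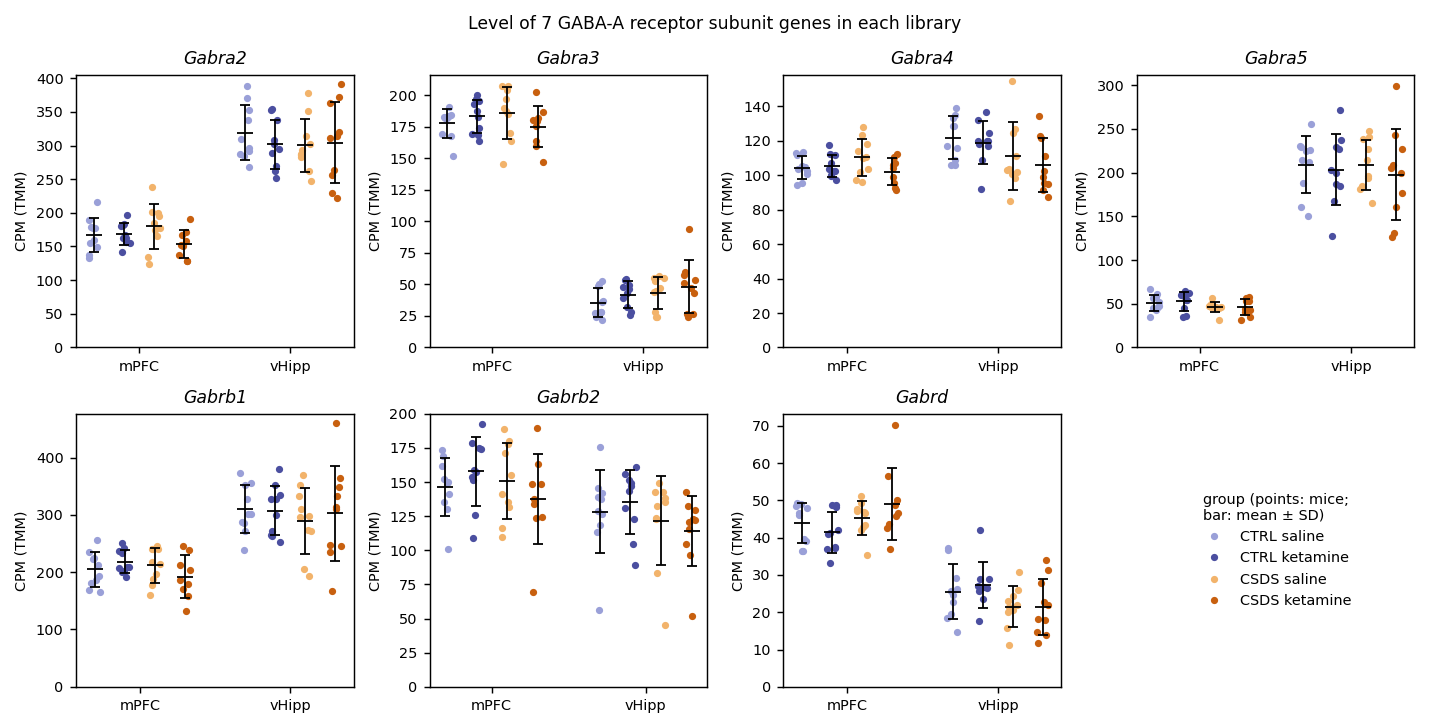
Level of each of the 7 genes in CPM (y axis, from 0) in every library, by region and group (x axis), with points for mice and black bars for the mean ± SD. The vHipp points of Gabra5, 126.1 to 298.8 CPM, lie above all its mPFC points, those of Gabra3 lie below, and the 4 groups overlap within each region for every gene.

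No gene of the table reached an adjusted p under 0.05 in any within-region contrast by the quasi-likelihood test of edgeR, adjusted after Benjamini-Hochberg. These contrasts were the stress effect (CSDS minus CTRL) and the ketamine effect (ketamine minus saline), each as a mean over the other factor and within its levels, and their interaction, so 0.0% of the 28993 genes tested in the mPFC were called, and likewise of the 28991 tested in the vHipp. DESeq2 also called 0 genes in these contrasts, apart from 14 genes for the stress effect in the vHipp averaged over treatments. None of the 7 genes was among the calls of either tool. At an unadjusted p under 0.05, the shares of all genes lay between 2.84% (823 genes) and 9.71% (2816 genes). The 7 genes are therefore given with unadjusted p-values, none of which survived adjustment.

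In the mPFC, Gabrd had a stress effect of 0.14 (LFC, SE 0.0621, unadjusted p = 0.0256, adjusted p = 1.0 by edgeR's quasi-likelihood test) averaged over treatments. It was the only one of the 7 genes under 0.05, where 3.52% of all genes were, and the LFC of the other 6 lay between −0.16 and 0.02. Among ketamine-treated mice the Gabrd LFC was 0.25 (SE 0.089, unadjusted p = 0.00777, adjusted p = 0.83 by the same edgeR test), and 5.8% of all genes were under 0.05. The difference leaned on CSDS ketamine mouse 1, which had 70.3 CPM. Without this library the LFC were 0.10 (unadjusted p = 0.074) and 0.16 (unadjusted p = 0.0545) in edgeR. The contrast of long and short transcripts, with which Gabrd correlated at r = −0.639 in the mPFC (rho = −0.609, r = −0.495 without the 2 farthest mice, permutation p = 7e-05, adjusted p = 0.000708 over 182 correlations), had a median of 0.0624 in the CTRL ketamine mice (lowest −0.12) and of −0.0563 in the CSDS ketamine mice (lowest −0.633). Its part in the Gabrd value was not tested.

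Ketamine against saline in the CSDS mice gave Gabra2 an LFC of −0.21 in the mPFC (SE 0.0919, unadjusted p = 0.0246, adjusted p = 0.993 by edgeR's quasi-likelihood test) and Gabra4 an LFC of −0.10 (SE 0.0501, unadjusted p = 0.0453, adjusted p = 0.993 in the same fit). In this contrast 4.32% of all genes were under 0.05. Without mouse 1 the Gabra4 value was −0.09 (unadjusted p = 0.0768 in edgeR) and the Gabra2 value was −0.22 (unadjusted p = 0.0264). None of the 7 genes was under 0.05 for ketamine averaged over stress groups (3.07% of all genes), stress with saline (2.94%), ketamine in CTRL mice (3.64%) or the interaction of stress and ketamine (5.31%), where the LFC of the 7 genes lay between −0.23 and 0.21. With sets of mouse numbers as a covariate, where a set joins 1 CTRL run and 1 CSDS run, 2 of the 7 genes were under 0.05 for that interaction (7.48% of all genes in that fit), and 3 in place of 2 for ketamine in the CSDS mice (5.59%).

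In the vHipp, the stress effect averaged over treatments was −0.28 for Gabrd (LFC, SE 0.122, unadjusted p = 0.0248, adjusted p = 0.437 by edgeR's quasi-likelihood test) and −0.14 for Gabra4 (SE 0.0596, unadjusted p = 0.0274, adjusted p = 0.443 in the same fit). Those were 2 of the 7 genes, where 9.71% of all genes were under 0.05. The LFC of the other 5 lay between −0.15 and 0.25. With mouse 11 or mouse 9 left out, Gabrd was at −0.27 or −0.28 and Gabra4 at −0.12 or −0.13. None of the 7 genes was under 0.05 for the stress effect with saline (5.57% of all genes) or with ketamine (5.42%), for ketamine averaged (3.39%), in CTRL mice (2.88%) or in CSDS mice (2.9%), or for the interaction (2.84%).

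Markers of dentate granule cells, the cells best known for alpha4 with delta, had vHipp values in the same direction. All 5 markers (Prox1, Dsp, C1ql2, Tdo2 and Calb1) had a negative vHipp stress LFC averaged over treatments, between −0.48 and −0.24, and 2 of the 5 were under an unadjusted p of 0.05, namely Prox1 (−0.43) and C1ql2 (−0.48). Their summed level had group medians of 490.1 CPM (272.4 to 656.0) in CTRL saline, 487.4 (308.1 to 627.0) in CTRL ketamine, 376.0 (147.1 to 608.3) in CSDS saline and 332.3 (172.8 to 520.7) in CSDS ketamine. The groups overlapped, no marker was at 0 in any group, and both CSDS medians lay below both CTRL medians. Astrocyte markers had 4 of 5 genes under an unadjusted p of 0.05 in the other direction, microglia markers 4 of 5 and endothelial markers 3 of 4. Over all genes the share under 0.05 in this contrast was 9.71%. CSDS ketamine mouse 11 had the highest vHipp deviations of the astrocyte, microglia and endothelial sums (log2 1.225, 1.143 and 1.009). The astrocyte median of CSDS ketamine lay below both CTRL medians, and that of CSDS saline above both. The microglia median of CSDS ketamine lay between the CTRL medians, and that of CSDS saline above both. Both endothelial CSDS medians lay above both CTRL medians. The part of mouse 11 in these marker counts was not tested. The part of these cell markers in the Gabrd and Gabra4 values was not tested.

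The region difference was also set between stress groups. For Gabrd it was −0.78 in CTRL saline, −0.61 in CTRL ketamine, −1.07 in CSDS saline and −1.19 in CSDS ketamine mice. The difference of these differences, CSDS minus CTRL, was −0.44 (LFC, SE 0.14, unadjusted p = 0.0026, adjusted p = 0.589 by edgeR's quasi-likelihood test). Gabra4 had region differences of 0.22, 0.17, 0.01 and 0.05 in the same order, and a region by stress LFC of −0.17 (SE 0.0705, unadjusted p = 0.0217, adjusted p = 0.688 in the same fit). They were 2 of the 7 genes under 0.05 where 6.86% of all genes were, and 0.0% of all 31534 genes passed after adjustment (DESeq2 also called 0, with 1532 unadjusted). Without the 3 libraries that stood apart, the values were −0.37 for Gabrd and −0.14 for Gabra4. For region by ketamine, none of the 7 genes was under 0.05, where 3.46% of all genes were.

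**Figure D3:**
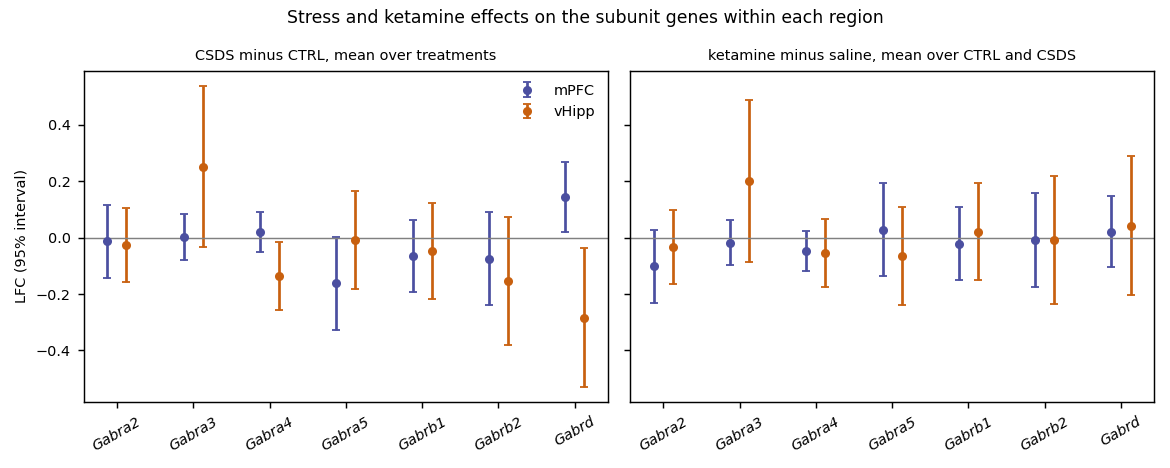
LFC with its 95% interval (y axis) of each of the 7 genes (x axis) for CSDS minus CTRL averaged over treatments (left) and ketamine minus saline averaged over stress groups (right), in the mPFC (blue) and the vHipp (orange). Intervals that leave 0 are those of Gabrd, at 0.14 in the mPFC and −0.28 in the vHipp, and of Gabra4 at −0.14 in the vHipp, none of which passed after adjustment.

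The intervals bound how large a difference the groups could hide if the mice of a group are independent. Runs of mouse numbers, each of 1 stress group, were not in this fit, so the stress intervals may be too narrow. For stress averaged over treatments, the 95% intervals of all 7 lay from −0.33 to 0.27 in the mPFC and from −0.53 to 0.54 in the vHipp. For ketamine averaged over stress groups, they lay from −0.23 to 0.19 in the mPFC and from −0.24 to 0.49 in the vHipp. The upper vHipp bounds were those of Gabra3, the gene with the widest relative spread there.

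Whether a mouse high in one region was also high in the other was asked over 39 mice, from deviations of log2 CPM from the group mean, with 7 correlations and permutation tests within groups. It held for 4 of the 7 genes after Benjamini-Hochberg adjustment over the 7. The same test over 15184 genes with a mean of at least 1 CPM in both regions called 35.0% of them after adjustment over all of these genes, and the same 4 of the 7 passed there, with adjusted p between 0.00196 and 0.0272 (permutation tests). The count of 4 of 7 is to be read against that share. Without the 2 mice farthest from the median, Gabra2 and Gabrb1 still passed over the 7, and Gabrb2 and Gabra4 did not (permutation tests, adjusted p = 0.0666 and 0.0793). Gabrb2 had r = 0.626 (rho = 0.555, permutation p = 0.00027, adjusted p = 0.00189), and r = 0.403 without the 2 mice farthest from the median. Gabrb1 had r = 0.539 (rho = 0.465, permutation p = 0.00187, adjusted p = 0.00654), and 0.439 without the 2 farthest.

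Gabra2 had r = 0.466 between the regions (rho = 0.475, permutation p = 0.00314, adjusted p = 0.00733, r = 0.459 without the 2 farthest mice) and Gabra4 had r = 0.459 (rho = 0.425, permutation p = 0.00805, adjusted p = 0.0141, r = 0.351 without the 2 farthest mice). Gabrd (r = 0.24), Gabra3 (r = −0.211) and Gabra5 (r = −0.017) did not pass. The 3 genes that did not pass are also the 3 with the largest absolute LFC between the regions.

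The runs of mouse numbers bear on these values. With the run and the group taken out of each gene and permutations within runs, Gabra2 was at r = −0.114 (permutation test, adjusted p = 0.596) and Gabra4 at −0.097 (permutation test, adjusted p = 0.596), so neither call held within runs. Gabrb2 was at r = 0.729 (permutation test, adjusted p = 7e-05) and still passed. Gabrb1 was at 0.544 and passed when adjusted over the 7 genes but not over all genes (permutation test, adjusted p = 0.0375 and 0.0656). Gabrd passed within runs under both, at r = 0.520 (permutation test, adjusted p = 0.0341 and 0.0465). Over all genes, 21.8% passed within runs. For Gabra2 and Gabra4, what a mouse shares between its regions and what its run shares cannot be told apart over all 39 mice.

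The balance of long and short transcripts moved with the beta genes. Its value in the mPFC and the vHipp of a mouse correlated at r = 0.821 (rho = 0.724, permutation p = 1e-05, the smallest that the resamples can give, r = 0.722 without the 2 farthest mice). With this contrast, Gabrb2 correlated at r = 0.832 in the mPFC (rho = 0.753, r = 0.721 without the 2 farthest) and r = 0.897 in the vHipp (rho = 0.781, r = 0.835), and Gabrb1 at r = 0.814 (rho = 0.845, r = 0.756) and r = 0.770 (rho = 0.643, r = 0.644). All 4 had a permutation p of 1e-05 and an adjusted p of 0.000202 over 182 correlations. After a regression of each gene on the contrast, the correlation between the regions was 0.0404 for Gabrb2 and 0.314 for Gabrb1, and neither passed, while Gabra2 was at 0.554 (permutation test, adjusted p = 0.00357), where 20.6% of all genes passed. With the runs of mouse numbers also taken out, Gabra2 was at 0.0251 (permutation test, adjusted p = 0.978), and none of the 7 genes passed, against 7.95% of all genes. The lowest vHipp libraries on the contrast, those of mice 1, 9 and 24, are also the 3 with the least Gabrb2.

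Within a region, 26 of 42 correlations between pairs of the 7 genes passed after adjustment (permutation tests, 15 in the mPFC and 11 in the vHipp), as the heat maps of pairwise r show. All genes of a library share its RNA and its scaling. The smallest absolute r among the pairs that passed was 0.378 in the mPFC and 0.390 in the vHipp, and 18.8% and 20.5% of all pairs of the 15184 genes were at or above it. The strongest pair in either region was Gabrb1 with Gabrb2, at r = 0.822 in the mPFC (rho = 0.813, permutation p = 1e-05, adjusted p = 0.00014, r = 0.780 without the 2 farthest mice) and r = 0.726 in the vHipp (rho = 0.616, permutation p = 1e-05, adjusted p = 0.00014, r = 0.582). Gabrb1 and Gabrd went in opposite directions, at r = −0.752 in the mPFC (rho = −0.688, permutation p = 1e-05, adjusted p = 0.00014, r = −0.657) and r = −0.618 in the vHipp (rho = −0.654, permutation p = 0.00011, adjusted p = 0.000577, r = −0.615). After the regression on the contrast of long and short transcripts, 15 of 42 passed, of which 13 were among the 26 and 2 were not, namely vHipp Gabra4 with Gabrd (r = 0.404, permutation test, adjusted p = 0.0405) and vHipp Gabra5 with Gabrb2 (r = −0.414, permutation test, adjusted p = 0.0298). Within runs of mouse numbers, 13 of 42 passed, 12 of them among the 26. Gabrb1 with Gabrb2 (0.781 in the mPFC and 0.825 in the vHipp) and Gabrb1 with Gabrd (−0.701 and −0.654) were among those 12 in both regions. After the regression on the contrast, Gabrb1 with Gabrb2 had r = 0.449 in the mPFC (permutation test, adjusted p = 0.0192) and 0.125 in the vHipp, where it no longer passed (permutation test, adjusted p = 0.559), and the largest absolute r in the vHipp was that of Gabra3 with Gabra4, at −0.718.

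The neighbours on chromosome 5 correlated in most cases. In the mPFC, Gabra2 and Gabra4 had r = 0.660 (rho = 0.598, permutation p = 7e-05, adjusted p = 0.00049, r = 0.569 without the 2 farthest mice), Gabra4 and Gabrb1 had r = 0.649 (rho = 0.652, permutation p = 5e-05, adjusted p = 0.00042, r = 0.639) and Gabra2 and Gabrb1 had r = 0.582 (rho = 0.569, permutation p = 0.00021, adjusted p = 0.000882, r = 0.509). In the vHipp, Gabra2 and Gabrb1 had r = 0.674 (rho = 0.689, permutation p = 3e-05, adjusted p = 0.000315, r = 0.611) and Gabra2 and Gabra4 had r = 0.522 (rho = 0.549, permutation p = 0.00122, adjusted p = 0.00394, r = 0.539). The head-to-head pair Gabra4 and Gabrb1 did not pass in the vHipp, at r = 0.340 (rho = 0.370, permutation p = 0.0562, adjusted p = 0.0812, r = 0.348). After the regression on the contrast of long and short transcripts, Gabra2 and Gabrb1 still passed in both regions, at r = 0.678 in the mPFC and 0.589 in the vHipp. Gabra2 with Gabra4 (0.640) and Gabra4 with Gabrb1 (0.476) passed in the mPFC. In the vHipp, Gabra2 with Gabra4 was at 0.385 and lost its call (permutation test, adjusted p = 0.0562), and Gabra4 with Gabrb1 was at −0.108. Within runs of mouse numbers, Gabra2 with Gabra4 passed in the mPFC (r = 0.454, permutation test, adjusted p = 0.0279) and Gabra2 with Gabrb1 in the vHipp (r = 0.685, permutation test, adjusted p = 0.00084). The other 3 pairs that had passed did not, at r = 0.361 for Gabra4 with Gabrb1 and 0.322 for Gabra2 with Gabrb1 in the mPFC, and 0.198 for Gabra2 with Gabra4 in the vHipp.

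**Figure D4:**
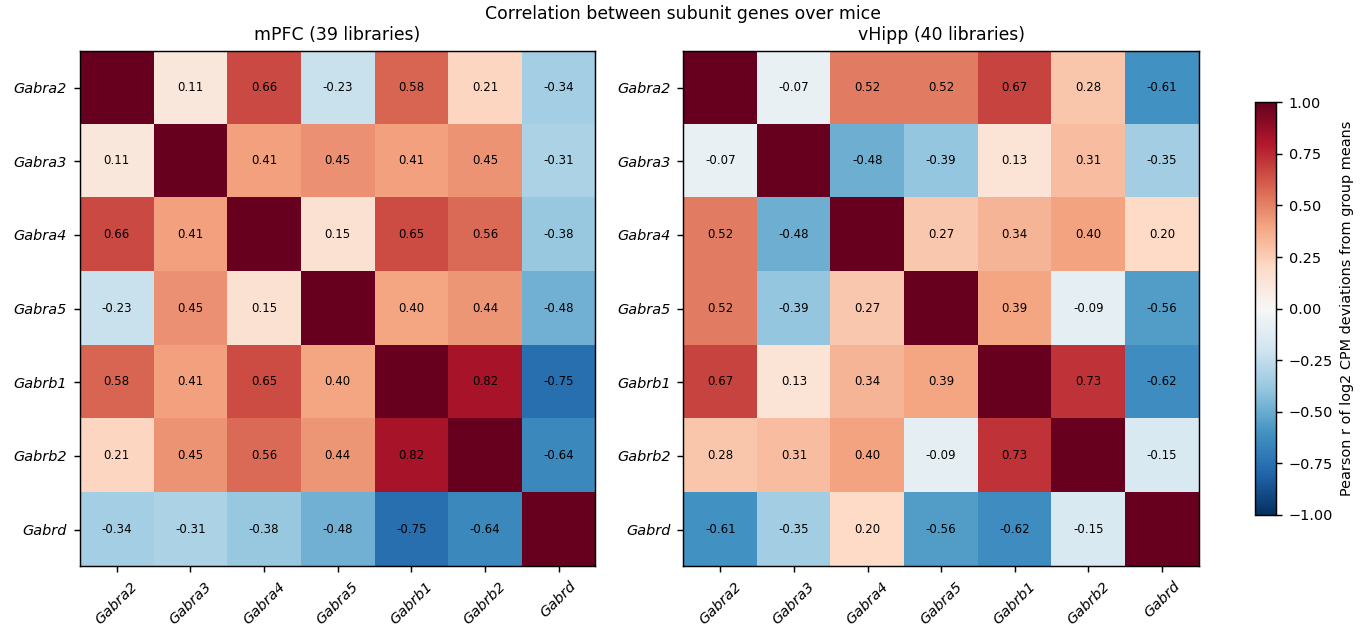
Pearson r between each pair of the 7 genes (both axes) over 39 mPFC libraries (left) and 40 vHipp libraries (right), from deviations of log2 CPM from the group means, with red for positive and blue for negative r. Gabrb1 with Gabrb2 is the darkest red pair in both regions (0.822 and 0.726), and the row of Gabrd is blue throughout the mPFC.

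Each gene was also set against the summed level of 12 lists of cell type markers in its region, within the same 182 correlations. The list or contrast with the largest absolute r is given for each gene, a choice made after the values were seen. In the vHipp, Gabrd followed the dentate granule cell markers (r = 0.811, rho = 0.774, permutation p = 1e-05, adjusted p = 0.000202, r = 0.745 without the 2 farthest mice). Gabra5 went against the striatal neuron markers (r = −0.797, rho = −0.756, permutation p = 1e-05, adjusted p = 0.000202, r = −0.721), as did Gabra2 (r = −0.595, rho = −0.630, permutation p = 0.00088, adjusted p = 0.00534, r = −0.502). Gabra3 followed the thalamic markers (r = 0.643, rho = 0.702, permutation p = 2e-05, adjusted p = 0.000303, r = 0.654), and Gabra4 went against the oligodendrocyte markers (r = −0.596, rho = −0.566, permutation p = 0.00014, adjusted p = 0.00121, r = −0.531).

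In the mPFC, Gabra3 went against the astrocyte markers (r = −0.730, rho = −0.763, permutation p = 1e-05, adjusted p = 0.000202, r = −0.740 without the 2 farthest mice). The dentate list, of which Calb1 is also a gene of cortical neurons, went with Gabra2 (r = 0.682, rho = 0.650, permutation p = 2e-05, adjusted p = 0.000303, r = 0.591) and against Gabra5 (r = −0.694, rho = −0.654, permutation p = 3e-05, adjusted p = 0.00042, r = −0.702). Calb1 made up most of this sum in the mPFC, with a median of 131.3 CPM. The medians of Prox1, C1ql2, Dsp and Tdo2 were 22.7, 5.89, 2.01 and 0.399 CPM. Gabra4 followed the thalamic list (r = 0.576, rho = 0.605, permutation p = 0.0001, adjusted p = 0.000958, r = 0.518), and Gabrd went against the contrast of long and short transcripts (r = −0.639, rho = −0.609, permutation p = 7e-05, adjusted p = 0.000708, r = −0.495). The labels name no sequencing batch or date, so no value within batches is given. The 182 correlations were permuted within groups only, and they were not computed within runs of mouse numbers.

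**Figure D5:**
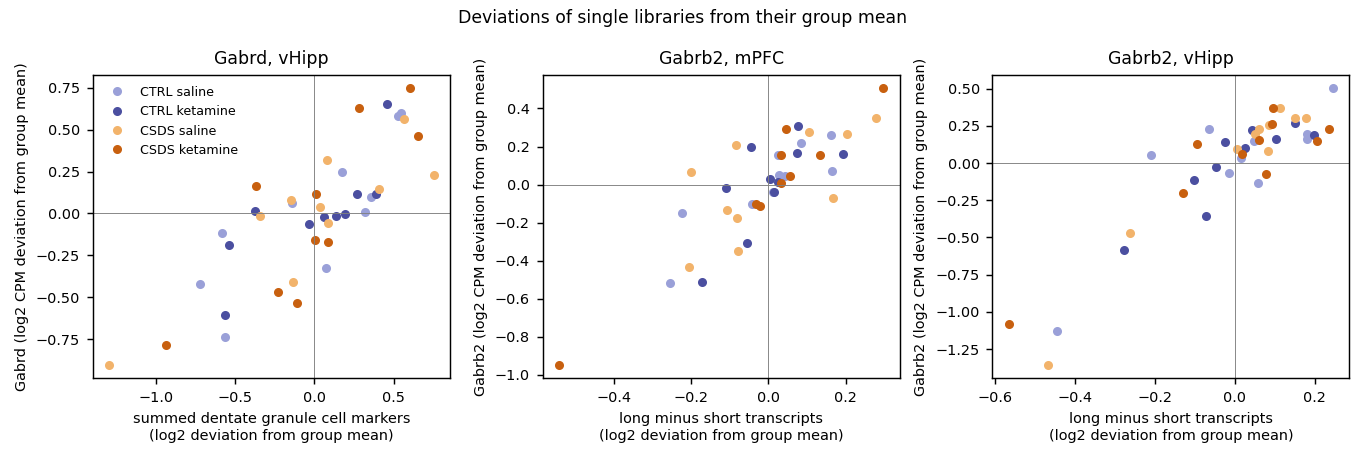
Deviation of log2 CPM from the group mean (y axes) of Gabrd in the vHipp against the summed dentate granule cell markers (left), and of Gabrb2 in the mPFC (middle) and the vHipp (right) against the contrast of long and short transcripts (x axes, log2 deviation from the group mean), with 1 point for each library, coloured by group. Points rise from lower left to upper right in each panel, with r of 0.811, 0.832 and 0.897, and the libraries of mice 1, 9 and 24 lie at the lower left of the vHipp panel of Gabrb2.

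Genes whose pattern over all 79 libraries was most like that of each gene were ranked by Pearson r of log2 CPM among 15184 genes. The mean of each of the 8 groups was subtracted first, so differences between regions and between groups do not enter these values. For Gabra5 they were Ttc19 (0.846), Tnfrsf21 (0.825) and Map2k4 (0.824), and for Gabra2 Gpm6a (0.848), Sh3bgrl (0.843) and Tmed7 (0.819). For Gabra3 they were Ldb2 (0.910), Gpr161 (0.860) and Ptpru (0.855), and for Gabra4 Ccdc85a (0.839), Pkia (0.825) and Bag4 (0.817). Gabrd was closest to Pkig (0.878), Grm2 (0.868) and Pde1b (0.868). The beta genes had the closest companions, with Pikfyve (0.927), Dnajb14 (0.919) and Cep170 (0.915) for Gabrb1, and Ash1l (0.946), Klhl11 (0.939) and Bptf (0.937) for Gabrb2.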

How the data were processed

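Bulk RNA-seq of 39 mPFC and 40 vHipp punches was analyzed. The authors kept RNA of integrity 8 or higher, prepared stranded mRNA libraries, ran paired-end sequencing and assigned reads to genes of GRCm38. The deposited values are raw counts, whole and not normalized. The submitters' processing notes name bcl2fastq 2.20.0.422 and CASAVA, and the aligner and counting program are not given in the sources used here. Of 55471 identifiers, 55144 were matched to a GENCODE M21 symbol and 327 were not.

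From these counts, region, stress group, treatment and mouse were taken from the labels, and genes with more than 10 counts in total and counts in more than 3 libraries were tested. edgeR 4.0.16 (R 4.3.3) was fitted over all groups of a region, or over all 8 groups for contrasts between regions, as quasi-likelihood test with TMM factors, without covariates, two-sided, with Benjamini-Hochberg adjustment over all genes and a threshold of 0.05. The social box, a covariate of the authors, was not used here. CPM were computed with TMM factors. Correlations used log2 CPM deviations from group means and 100000 permutations within groups (scipy 1.17.1). At the depth of these libraries, the spread between mice limits the precision for the 7 genes more than counting error. The scripts were tested on simulated data.

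All 7 genes are named for the region difference. For other contrasts those with an unadjusted p under 0.05 are named, and for the other lists the 2 genes with the largest region LFC. Some genes of these lists are not reported here. The genes, lists, markers and tests were chosen with earlier results of these data known.

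Same-numbered libraries of both regions come from the same mouse. The deviations of a mouse's 2 libraries had a median correlation of 0.293 over 15184 genes, against −0.0032 for different mice, 36 of 39 were over 0.1, and 25 of 39 mPFC libraries correlated best with their own vHipp library. Alternatives were DESeq2 1.42.0, RLE factors, CPM without factors, filterByExpr and no filter, the 2 groups compared alone, sets of mouse numbers as a covariate, the mouse as a block, the 2 most distant mice left out of correlations and, chosen after the data were seen, 3 libraries left out and correlations after a regression on the contrast of long and short transcripts, on runs of mouse numbers, or on both, and the between-region test over all genes with a mean of at least 1 CPM in both regions.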

Additional observations from a re-analysis of the deposited data

Results flagged for a closer look

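In 5 of 56 groups of 9 or 10 libraries, 1 mouse stood apart from the rest of its group, where chance gives about 2.8. Gabrb2 had 2 of them in the vHipp. Mouse 24 of the CTRL saline group had 56.6 CPM, with the nearest mouse at 113.2 CPM, and mouse 1 of the CSDS ketamine group had 52.2 CPM, with the nearest at 96.4 CPM. Both libraries are among the 3 lowest of the vHipp on the contrast of long and short transcripts, at −0.47 and −0.64, and the part of that contrast in the Gabrb2 values of these 2 libraries was not tested.

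The vHipp level of Gabra3 reached 93.7 CPM for mouse 5 of the CSDS ketamine group, with the nearest mouse at 59.6 CPM. That of Gabrd reached 42.1 CPM for mouse 36 of the CTRL ketamine group, with the nearest mouse at 29.0 CPM. Gabra5 was low in the mPFC of mouse 7 of the CSDS saline group, at 31.6 CPM, with the nearest mouse at 45.4 CPM.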

How the results depend on the processing

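The direction and the call of the region difference of the 5 genes not chosen for it were kept under each alternative run, with LFC of Gabra3 between −2.20 and −2.10 and of Gabrb2 between −0.27 and −0.25. That of Gabra5, a description, lay between 2.05 and 2.06. With the mouse as a block, 15437 genes were called in place of 15415, the same 5 genes among them, and 0 for region by stress and region by ketamine. The block gave region by stress LFC of −0.41 for Gabrd (unadjusted p = 0.00138) and −0.17 for Gabra4 (unadjusted p = 0.00353), and the pairing changed no call. Without mouse 1 in the mPFC, or mouse 11 or 9 in the vHipp, each within-region contrast called between 0 and 0 genes. DESeq2 called 14 genes for the stress effect in the vHipp averaged over treatments, in place of 0 by edgeR, and none of the 7. With sets of mouse numbers as a covariate, the genes of the 7 under an unadjusted p of 0.05 numbered 2 for stress averaged over treatments in the mPFC (in place of 1, with 4.2% of all genes in place of 3.52%), 3 for stress with ketamine (1, with 8.3% in place of 5.8%), 3 for ketamine in CSDS mice (2, with 5.59% in place of 4.32%) and 2 for the interaction there (0, with 7.48% in place of 5.31%), and 2 for stress with ketamine in the vHipp (0, with 6.29% in place of 5.42%). With the 2 groups compared alone, these numbers in the mPFC were 1 for ketamine in CSDS mice (853 of 26384 genes) and 2 for stress with ketamine (1371 of 26513 genes). Without a filter they were 2 for stress averaged over treatments there (1559 of 38131 genes) and 2 for stress with ketamine (2109 of 38131 genes). None passed after adjustment. Without mouse 1 these numbers in the mPFC were 0 for stress averaged over treatments (3.33% of all genes) and with ketamine (4.24%), and 1 for ketamine in CSDS mice (4.08%). Without mouse 9 the number was 3 in place of 2 for stress averaged over treatments in the vHipp (8.86% in place of 9.71%).

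The correlations depended more on the setting. Between the regions, 2 of 7 (Gabra2 and Gabrb1) passed in place of 4 without the 2 mice farthest from the median, 1 after the regression on the contrast of long and short transcripts, 3 within runs of mouse numbers (Gabrb1, Gabrb2 and Gabrd) and 0 with both taken out. Within runs, Gabra2 was at r = −0.114 and Gabra4 at −0.097, and with both taken out Gabra4 was at −0.127 and Gabrb1 at −0.0058. Within regions, 15 of 42 passed in place of 26 after that regression (13 of the 26 and 2 others), 13 within runs and 13 with both taken out (each 12 of the 26 and 1 other). Gabra4 with Gabrb2 in the vHipp went from r = 0.400 to −0.172 after the regression and to −0.154 with both taken out, where Gabra2 with Gabra4 in the vHipp was at −0.0138 and Gabra4 with Gabrd in the mPFC at 0.0122. The adjustments take out what a gene shares with the contrast or the run, and what sets the contrast was not tested. Depth limits the low subunits, such as Gabrr1 and Gabra6, and not the 7 genes.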

Other observations

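Gabra6 (alpha6, a cerebellar subunit) and Gabrp (pi) were near 0 in these punches. Gabra6 had a count in 4 of 39 mPFC libraries and 6 of 40 vHipp libraries, with at most 27 and 4 counts, and Gabrp had 1 count in 1 library of each region. The rho subunits Gabrr1 and Gabrr2 had mean levels of 0.0541 and 0.179 CPM in the mPFC and of 0.235 and 0.332 CPM in the vHipp.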
